A study of Mus musculus with 7 samples.

Results

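CTCF binds DNA through a long, directional motif and stops cohesin, the ring-shaped complex that is thought to reel chromatin into loops, so that a loop is usually held between CTCF sites whose motifs point towards each other. Rad21 closes the cohesin ring, and Stag1 and Stag2 are alternative subunits that dock on it. Top2b is a topoisomerase that cuts and rejoins both DNA strands to release torsion and is found beside CTCF and cohesin. In liver, as in other tissues, such loops lie within topologically associating domains (TADs), the large domains that hold most chromatin contacts, and those inside a TAD are called intra-TAD loops.

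The regions described here are anchors of intra-TAD loops, as the authors predicted them, that also carried Rad21 and Top2b in mouse liver. Of 52436 CTCF sites that the authors placed in classes, 9052 were intra-TAD anchors, and 8978 of these lay on chromosomes 1 to 19. A site was taken when it had the deposited flag for overlap with a Top2b peak and shared at least 1 bp with a pooled Rad21 peak. This left 6950 anchors, 77.4% of the autosomal intra-TAD anchors and 13.3% of all sites in classes. Another 1741 autosomal intra-TAD anchors had Rad21 without the Top2b flag, 26 had the flag without a Rad21 peak, and 261 had neither. The 49 anchors on chromosome X with both marks were not included. Chromosome 11 held the most members, 646, and chromosome 18 the fewest, 182.

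The ChIP-seq libraries, 4 for CTCF and 3 for Rad21, were made from livers of male Crl:CD1(ICR) mice of 8 weeks, with an antibody from Millipore for CTCF and one from Abcam for Rad21 on crosslinked nuclei. Liver nuclei of every cell type entered these libraries, so that hepatocytes cannot be told apart from other cells. The values are from one pooled list per factor, with no value per library, so that no spread between mice can be given. The flags for Stag1, Stag2 and Top2b came from public liver data that the authors used, and the order of these columns was taken from their description of the list, since the list itself has no header. Wilson 95% intervals are given for shares and cover counting error only.

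The members were chosen by measured values, namely the overlap with Rad21 and Top2b peaks and the authors' class. According to the study's methods, intra-TAD anchors were predicted from the strand and score of the CTCF motif and from the strength of CTCF and Rad21, separately for each liver. The levels of both factors, the motif score and the order of motif strands within the members are therefore descriptions. Intra-TAD anchors without the Top2b flag passed the same prediction, and the Top2b peaks that separate them from the members are from other libraries. The prediction also dropped loops that held no start of a protein-coding gene or a liver lncRNA, a step described for these loops and not for TAD anchors, so that nearness to genes is partly built into any comparison with TAD anchors. At the inner edge of the overlap rule, the anchors near Zfhx2, Nipsnap3b and Dak shared 99, 115 and 160 bp with their Rad21 peak. At the outer edge, flagged anchors at Adam11, Dctn1 and Pkn3 lay 97, 122 and 213 bp from the nearest Rad21 peak and were left out.

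The motif sequences of the members with the strongest and the weakest signals show how far these sites can depart from each other. They were read from the NCBIM37 (mm9) assembly on the strand of the motif. Capitals mark the best match on that strand to a 19-bp CTCF motif learnt from TAD anchors. The first set belongs to the members with the highest CTCF scores, all within 100 bp of the start of a protein-coding gene.
Gbas, chr5:130230826-130230855, minus strand: gtgctGCCGCCAGGGGGCGTGCCAagaagt
Ick, chr9:77960991-77961020, plus strand: gagcaTCCGGGAGATGGCGGTGGTgcaggg
Adprhl2, chr4:125998980-125999009, minus strand: tccggGCCACAAGGGGGCGCTGTGgggccg
Vps36, chr8:23303221-23303250, plus strand: tggcaGCCGCCAGGGGGCGCCGCCtgtccg
Adrm1, chr2:179906098-179906127, plus strand: gcgctGCCGCCAGGGGCCACCGCCgctccc
The second set belongs to the members with the highest Rad21 scores other than Ick, which led that list too.
Sfpi1, chr2:90955407-90955436, plus strand: gacctACCAGAAGATGGCGCGCGCgctgcg
Irak2, chr6:113588361-113588390, plus strand: tgaatGCCACTGGGAGGCGCTCGCttgccc
Arid3a, chr10:79388145-79388174, minus strand: tggagGCCGCCAGGTGGTGCTATCgcacct
Snai1, chr2:167363459-167363488, plus strand: gcgcgGCCACCAGGGGTCGCCCGAggagct
The third set belongs to the members with the lowest CTCF scores, all in introns. The Masp1 and Smg6 sites lay 309 and 450 bp downstream of a start. At Masp1 the learnt motif had a better match on the other strand.
Mctp2, chr7:79338382-79338411, minus strand: gctatGCCATTAGGAGGAGCTCTTggcaca
Masp1, chr16:23520356-23520385, plus strand: cattgGCCAGTAGGCAGCACCCTGtgctgg
Smg6, chr11:74807817-74807846, plus strand: tagtaGCAGCAAGAGGGCACCCAAgagaca

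CTCF was strong at these anchors, and its level spread over more than 2 orders of magnitude. The CTCF score, the authors' peak score that rises with the significance of the peak, ran from 138 to 47004 with a median of 3358.5 and quartiles of 2301.25 and 4738.75. At the summit of the peak the pooled libraries held between 35 and 4170 CTCF fragments, with a median of 373. The anchor 49 bp upstream of Gbas had the highest score, 47004, from 4170 fragments. It was followed by anchors 80 bp upstream of a start of Ick, a protein kinase of cilia (score 37058), 82 bp upstream of Adprhl2, which removes ADP-ribose from proteins (37055), 25 bp upstream of Vps36, an ESCRT-II subunit (34773), and 87 bp upstream of Adrm1, a ubiquitin receptor of the proteasome (33301). Of the 278 members with a score of at least 10000, 146 lay within 1 kb of a start. At the other end, the anchor in an intron of Mctp2 scored 138 from 35 fragments. One in an intron of Masp1, a protease of the complement system, scored 151 from 53 fragments and lay 309 bp from a start. One in an intron of Smg6, a nuclease of mRNA decay, scored 170 from 39 fragments, a score that 3 members had. The Smg6 site lay 450 bp from a start. In 5 equal groups by CTCF score, from lowest to highest, 10.6%, 6.76%, 6.47%, 8.78% and 27.5% of members lay within 1 kb of a start.

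Rad21 had fewer fragments than CTCF, from 3 pooled libraries against 4, and spread as widely. These counts depend on the depth of each pool. The median local background at members was 11.6 fragments for Rad21 and 17.7 for CTCF. The background varied between members, from 5.13 to 64.0 for Rad21 and from 5.99 to 117.5 for CTCF, so its medians do not measure depth alone. The Rad21 score ran from 33 to 13675 with a median of 1198, and the summits held between 19 and 1328 fragments with a median of 163. The highest score, 13675, was at the Ick anchor, the one site that stood among the 5 strongest for both factors. The next were at a coding exon of Sfpi1, which encodes the blood cell transcription factor PU.1 (12635), 52 bp upstream of Irak2, a kinase of interleukin-1 signalling (11681), 1568 bp upstream of Arid3a, a DNA-binding protein (10991), and 235 bp upstream of Snai1, a zinc finger repressor (10729). A score of at least 10000 was reached at 6 members, and 50 members were below 100. Without correction for depth, 301 members had more Rad21 than CTCF fragments. The highest ratio was at the weak Masp1 site, with 126 Rad21 fragments against 53 for CTCF.

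**Figure D1:**
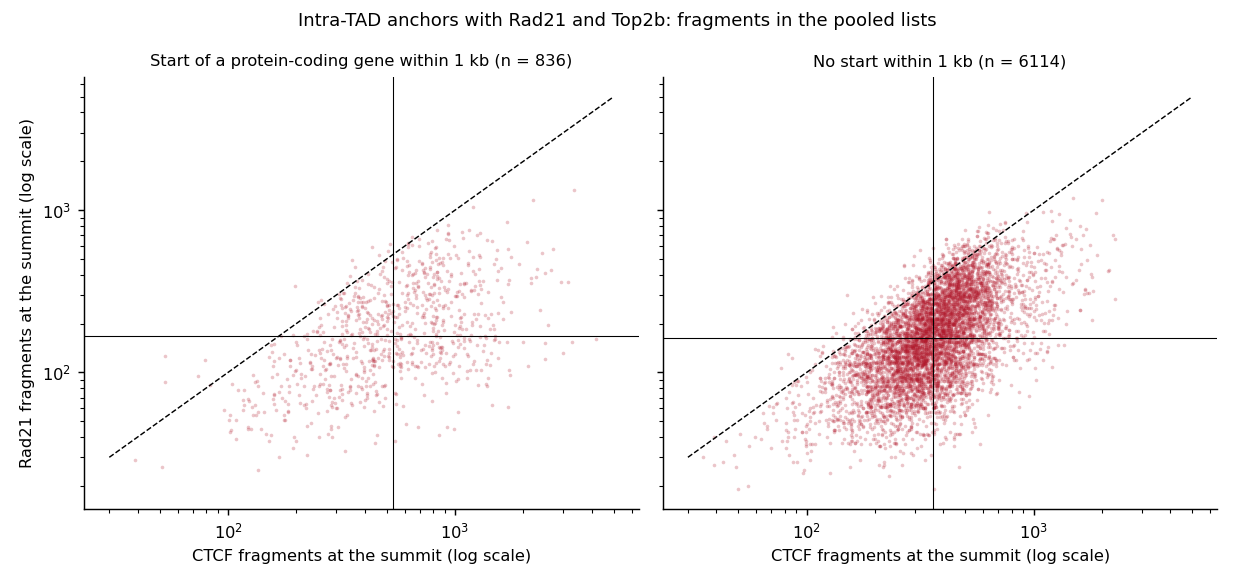
Fragments at the summit of the CTCF peak (horizontal, log scale) and of the strongest overlapping Rad21 peak (vertical, log scale) for each of the 6950 members, split by whether a protein-coding start lies within 1 kb. Solid lines are the medians, the dashed line marks equal counts, and the 836 members near a start reach further to the right (median of 531.5 CTCF fragments) at a similar height (168 Rad21 fragments).

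CTCF and Rad21 levels moved together only in part. Across the 6950 members, Spearman's rho of the CTCF and Rad21 scores was 0.56, as a description over regions that share the same libraries. When the members were ranked by CTCF score and cut into 5 equal groups, the lowest group (138 to 2084) had a median Rad21 score of 601, and the highest (5193 to 47004) one of 2314.5. The median member had 46.0 Rad21 fragments per 100 CTCF fragments, with quartiles of 30.5 and 65.4. This ratio was 34.6 at the 836 members within 1 kb of a start, 46.0 between 1 and 10 kb, 48.5 between 10 and 100 kb, and 43.4 beyond 100 kb. The median ratio was lower within 1 kb of a start than outside it on 19 of 19 autosomes, with a range over chromosomes of 26.7 to 47.7 near starts and 44.6 to 50.1 elsewhere. The median near a start was 531.5 CTCF fragments against 354 between 10 and 100 kb, and 168 Rad21 fragments against 163. At the extreme, the Gbas, Adrm1 and Adprhl2 anchors had 3.84, 4.39 and 4.65 Rad21 fragments per 100 of CTCF, and the Snai1 anchor 86.9. Of the 71 members with fewer than 10 Rad21 fragments per 100 of CTCF, 45 lay within 1 kb of a start. TAD anchors with the same 2 marks had ratios of 29.1 near starts and 47.3 between 10 and 100 kb, but there CTCF had 384 and 330 fragments and Rad21 95 and 143. At intra-TAD anchors without the Top2b flag the ratios were 28.7 and 34.6. The ratio was lower near starts on 19 of 19 chromosomes at TAD anchors, as at the members, and on 14 at anchors without the flag.

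The comparison with intra-TAD anchors that had Rad21 but no Top2b flag asks what, besides the flag, sets the members apart. Differences were taken within each of the 19 autosomes, between chromosome medians or shares, and tested with an exact two-sided sign-flip test with Benjamini-Hochberg adjustment over 18 tests. The chromosomes come from the same pooled libraries, so that these p-values do not cover variation between mice, and the Top2b flags come from other livers. CTCF was stronger at the members by 0.82 ± 0.15 log2 units of score (SD over 19 chromosomes) and was higher on 19 of 19 chromosomes (adjusted p = 1.4e-05 by the exact test). The medians over all sites were 3358.5 and 1902. The score measures significance, and with the fold over background as the measure of strength the difference was 0.39 log2 units. Among sites matched on Rad21 score it was 0.25 log2 units of score, with members higher on 17 chromosomes (adjusted p = 6.9e-05, exact test). Rad21 differed more, by 1.58 ± 0.25 log2 units (19 of 19 chromosomes, adjusted p = 1.4e-05, exact test), with medians of 1198 and 400. It was 0.81 log2 units with the fold as the measure of strength and 1.07 log2 units of score among sites matched on CTCF score. The ranges overlapped, but little in their middle parts, as the quartiles were 666 and 2122 at the members and 191 and 711 at the other anchors, of which 163 reached the median of the members. In fragments, the medians were 163 and 75 for Rad21 and 373 and 234 for CTCF. TAD anchors with Rad21 and the flag had median scores of 3091 for CTCF and 1045 for Rad21, and their difference from the members was not tested. The motif score gave no single direction. The score of the authors' CTCF motif was higher at members by 0.50 ± 0.62 (15 of 19 chromosomes, adjusted p = 0.0064, exact test), but the difference was -0.24 when sites were matched on CTCF score, -0.33 when matched on Rad21 score, 0.030 among sites with a CTCF score of at least 1000, and 0.29 without the motif sequences that recur at other sites, none of them past the threshold. The means of its chromosome medians were 18.1 and 17.6. The score of the motif learnt here from TAD anchors ran the other way, with medians of 16.7 at members and 17.4 without the flag. It differed by -0.69 on average, with members lower on 19 of 19 chromosomes (adjusted p = 1.1e-05, exact test). The learnt score was not compared among matched sites or without the motif sequences that recur at other sites.

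**Figure D2:**
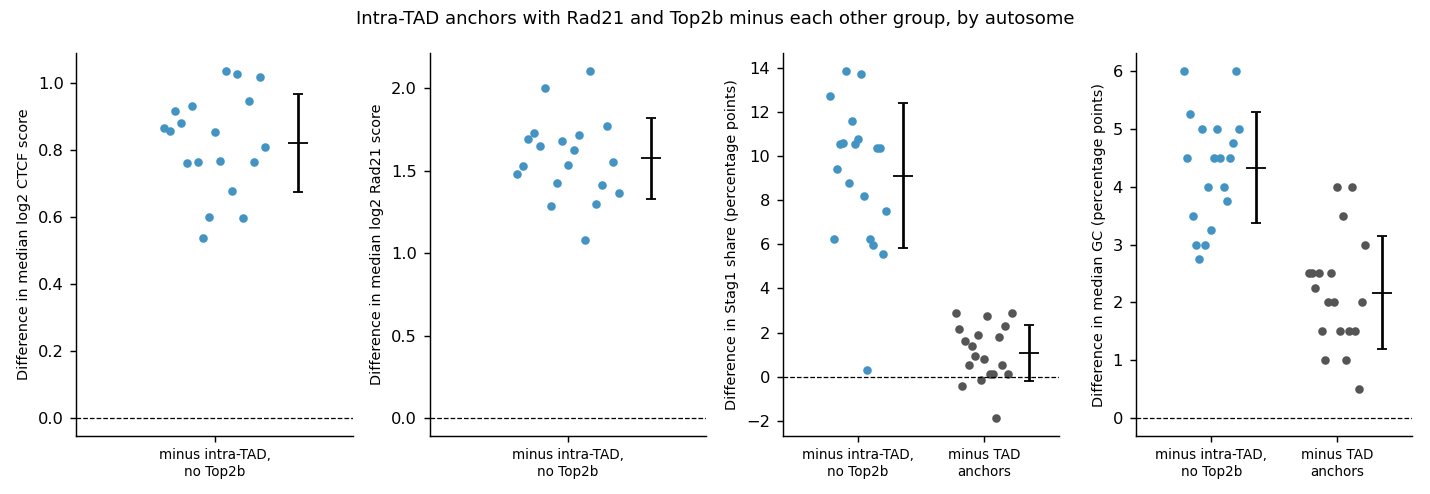
Difference between the members and each other group on each of 19 autosomes, in log2 score for CTCF and Rad21 and in percentage points for the Stag1 share and GC content. Each point is a chromosome from 1 at the left to 19 at the right, the bar is the mean with SD over chromosomes, and all points lie above 0 except 3 in the Stag1 comparison with TAD anchors.

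Both Stag subunits were flagged at nearly all members. Stag2 was flagged at 6938 of 6950 members, 99.8% (95% interval 99.7 to 99.9), and Stag1 at 6872, 98.9% (98.6 to 99.1). Stag2 alone was flagged at 69 members, Stag1 alone at 3, and neither at 9. The 78 members that lacked Stag1 were weak in Rad21, with a median score of 180.5, and in the lowest of 5 equal groups by Rad21 score (33 to 571) Stag1 was flagged at 94.9%, against 99.8% to 100% in the other groups. Without the Top2b flag, Stag1 was flagged at 89.4% (87.8 to 90.7) and Stag2 at 96.3% (95.3 to 97.1). By chromosome the members had a higher Stag1 share by 9.11 ± 3.29 percentage points (19 of 19 chromosomes, adjusted p = 1.4e-05, exact test). The difference was 3.43 percentage points among sites matched on Rad21 score, and was higher on 17 chromosomes (adjusted p = 4.6e-05, exact test). It was 5.80 among sites matched on CTCF score and 6.05 at a CTCF score of at least 1000. For Stag2 the difference was 3.34 ± 2.08 percentage points, with a higher share on 17 chromosomes and an equal one on 2 (adjusted p = 4.6e-05, exact test). It was 1.55 among sites matched on Rad21 score, 1.996 among sites matched on CTCF score and 1.70 at a CTCF score of at least 1000, all past the threshold. Against the 4033 TAD anchors with Rad21 and Top2b, the Stag1 share of the members was higher by 1.07 ± 1.28 percentage points (16 of 19 chromosomes, adjusted p = 0.0043, exact test). It was 0.67 when both summits had to lie within 100 bp (adjusted p = 0.015, exact test), and with sites within 1 kb of a start left out it was 0.29 (adjusted p = 0.34, exact test). On the even autosomes alone it was 0.75 (adjusted p = 0.16, exact test). The prediction used Rad21 strength for intra-TAD anchors, a step not described for TAD anchors. The 10th percentile of the Rad21 score was 376 at members and 255 at TAD anchors. Matching on Rad21 score was not run against TAD anchors, so the part of Rad21 level in this Stag1 difference was not tested. The Stag2 share differed from that of TAD anchors by -0.017 percentage points, with an SD over chromosomes of 0.22 (adjusted p = 0.84, exact test).

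Median GC content was higher at the members than in both other groups, with ranges that overlapped. In the 200 bp around the CTCF summit, members had a median GC content of 51.5%, against 47% at intra-TAD anchors without the Top2b flag and 49% at TAD anchors. The difference from anchors without the flag was 4.33 ± 0.96 percentage points on average over chromosomes, and members were higher on 19 of 19 (adjusted p = 1.4e-05, exact test). It was 1.37 among sites matched on CTCF score, 1.41 among sites matched on Rad21 score (adjusted p = 0.013, exact test) and 4.25 among sites over 1 kb from a start. Stronger members were richer in GC, with a median of 48.5% in the lowest of the 5 groups by CTCF score and 57.5% in the highest. Against TAD anchors the members were higher by 2.17 ± 0.97 percentage points, again on 19 of 19 chromosomes (adjusted p = 1.4e-05, exact test), and by 1.58 when matched on CTCF score. CpG dinucleotides, the sites of DNA methylation, numbered a median of 3 per 200 bp at members and 2 at anchors without the flag. Their difference of 0.87 ± 0.47 per 200 bp (16 chromosomes higher, 3 equal, adjusted p = 7.8e-05, exact test) was -0.26 among sites matched on CTCF score and 0.12 among those matched on Rad21 score, and 1.45 per 400 bp in the wider window. The matched values did not pass the threshold, nor did the 0.78 on the even autosomes (adjusted p = 0.051, exact test). Members and TAD anchors had the same mean of chromosome medians, 3.05 CpG per 200 bp.

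The profile around the motif showed where the difference in GC lay. In bins of 20 bp, GC content peaked just 3′ of the motif centre in all groups, at 60.2% in members, 59.2% without the Top2b flag and 58.0% at TAD anchors. From 60 to 80 bp 5′ of the centre, on the motif strand, the members had a mean GC content of 47.7% and TAD anchors 46.2%, whereas anchors without the Top2b flag were at 39.6%, lower than in any other bin of their profile. Far from the motif, the members stayed above the TAD anchors on both sides, at 48.3% and 46.1% in the bin centred 490 bp to the 3′ side.

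**Figure D3:**
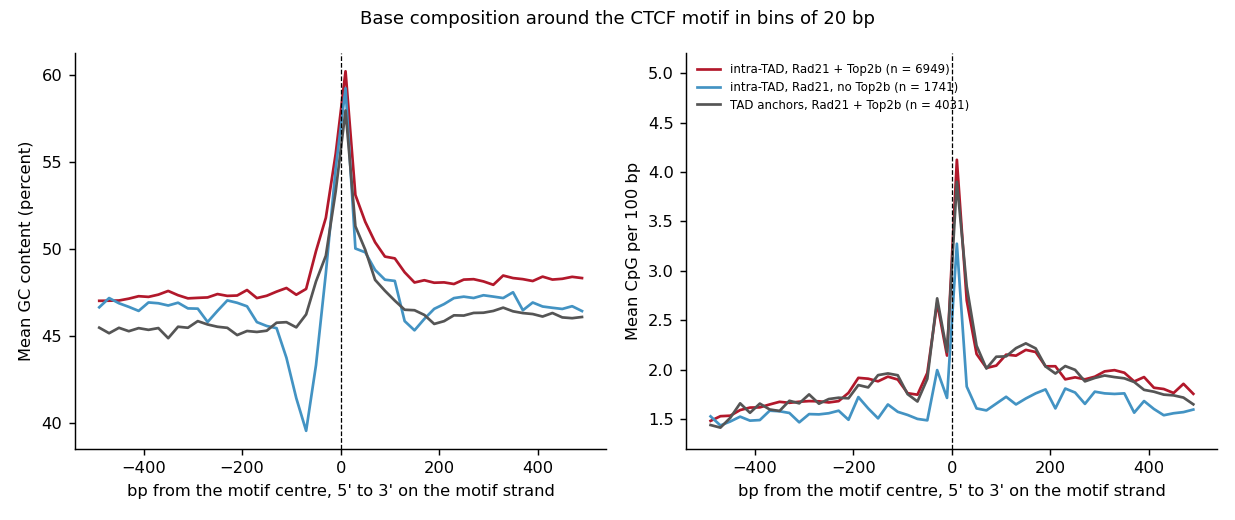
Mean GC content in percent and mean CpG per 100 bp in bins of 20 bp around the centre of the CTCF motif, read along the motif strand, for the members (red), intra-TAD anchors with Rad21 and no Top2b flag (blue) and TAD anchors with Rad21 and the flag (grey). Anchors without the flag dip to 39.6% GC from 60 to 80 bp 5′ of the motif, where the members are at 47.7%.

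Part of this pattern went with motif sequences that recur in the genome. Among the members, the 19-bp motif sequence was unique in 6409 cases, and 6617 different sequences occurred. The 5 most frequent are shown because they all hold the 12 letters at positions 2 to 13, set in capitals, and the letter after them.
28 members: gCCAGAAGAGGGCatcaga
12 members: aCCAGAAGAGGGCatcaga
11 members: gCCAGAAGAGGGCaccaga
9 members: gCCAGAAGAGGGCactaga
9 members: gCCAGAAGAGGGCactgga
On the autosomes of the assembly the first of these occurred 2358 times on both strands, with 42.2% of copies inside a pooled CTCF peak, and the second 12976 times, with 8.87%. The third occurred 696 times with 64.9% of copies in CTCF peaks.

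As a group, sequences of this kind were rarer at the members than at anchors without the Top2b flag. The stretch CCAGAAGAGGGC at motif positions 2 to 13 was found at 257 members, 3.70% (95% interval 3.28 to 4.17), at 300 of 1741 anchors without the flag, 17.2% (15.5 to 19.1), and at 105 TAD anchors, 2.60% (2.16 to 3.14). Over all sites in classes that have a motif the share was 12.3%. The motif sequence was found at another classed site for 17.5% of members (16.7 to 18.5) and 33.9% of anchors without the flag (31.7 to 36.1), against 15.4% of TAD anchors (14.3 to 16.6) and 23.4% of all sites in classes that have a motif. Both groups were also cut at the median Rad21 score of the members. The share among members was 17.9% below this score and 17.1% at or above it. Among anchors without the flag it was 33.7% of 1578 sites below and 36.2% of 163 sites (29.2 to 43.8) at or above. This contrast was seen after the sequences had been examined and was given no test. Sites with the shared stretch had a low GC content 5′ of the motif in both groups, 32.3% at members and 24.7% at anchors without the flag, yet the other anchors without the flag were also lower there (42.7%) than the other members (48.3%). When every site with a recurrent motif sequence was left out, the GC difference over 200 bp was 2.91 percentage points and members were higher on 19 of 19 chromosomes (adjusted p = 1.4e-05, exact test).

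Among members, those with a recurrent motif sequence had levels of CTCF and Rad21 close to those of the rest. Their median CTCF score was 3333 against 3364 at the 5731 members with a single sequence, and their Rad21 score 1167 against 1209. Their score for the authors' motif was higher, 20.4 against 17.6, and fewer lay within 1 kb of a start, 6.23% against 13.3%. That score ordered the members only weakly, with a Spearman's rho of 0.15 with CTCF score and 0.12 with Rad21 score, both across regions. Of the leading bases of the 19 motif positions, the one whose share differed most between the members and the anchors without the flag was C at position 5, which was present at 56.7% and 41.6%. The next were A at position 19, at 35.3% and 48.1%, and G at position 10, at 60.7% and 73.4%. The shared stretch described above has G at positions 5 and 10, and the most frequent sequences listed end in A. The part of these sequences in the base differences was not tested. A CpG at positions 13 and 14, the most frequent place for one in the motif, was present at 36.2% of members, 31.7% of anchors without the flag and 33.2% of TAD anchors.

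Rad21 summits lay to the 3′ side of CTCF summits, within a short distance. The 2 summits were within 100 bp of each other at 6815 members, 98.1%. On the motif strand, the Rad21 summit was 20 bp to the 3′ side of the CTCF summit in the median, with quartiles of 2 and 37 bp, and lay on that side at 76.5% of members (95% interval 75.5 to 77.5). Relative to the motif centre, CTCF summits had a median of -12 bp and Rad21 summits one of 16 bp. The offset between summits was 12 bp in the lowest of the 5 groups by Rad21 score and 22.5 bp in the highest, while near starts it was 11 bp against 21 bp at members from 10 to 100 kb away. The members did not differ past the threshold from anchors without the Top2b flag, with 1.21 ± 4.30 bp more over 19 chromosomes (adjusted p = 0.31, exact test), nor from TAD anchors, with a difference of -1.21 ± 3.72 bp (adjusted p = 0.25, exact test). Chromosome values ran from -9 to 7.5 bp in the first comparison and from -9 to 4.5 bp in the second.

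**Figure D4:**
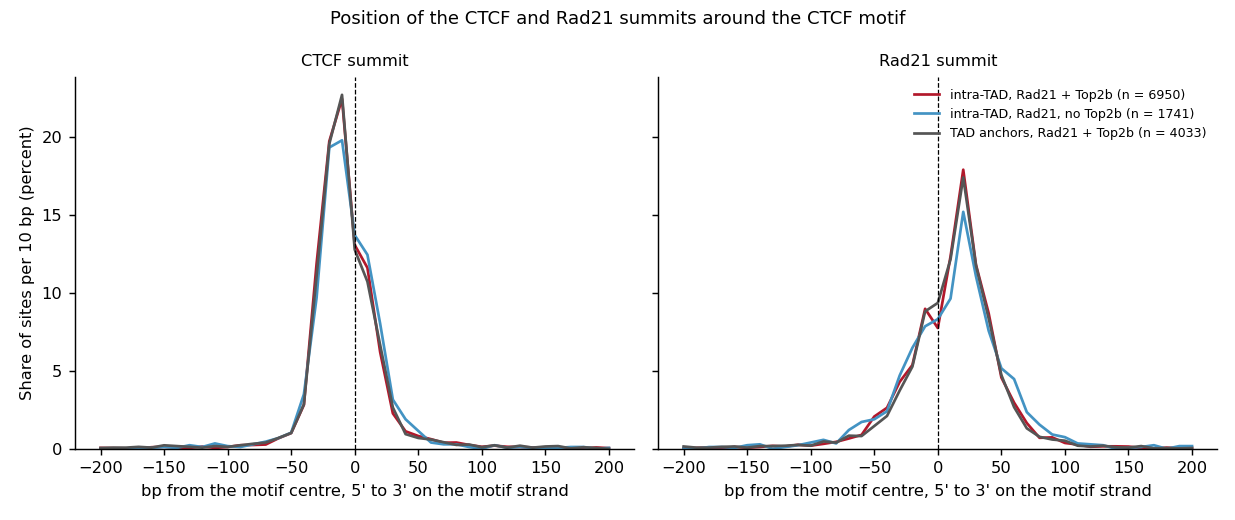
Position of the CTCF summit and the Rad21 summit relative to the centre of the CTCF motif, in bp along the motif strand, as the percent of sites per 10 bp for the 3 groups of anchors. CTCF summits gather to the 5′ side (median of -12 bp in the members) and Rad21 summits to the 3′ side (16 bp), with near-identical curves for members and TAD anchors.

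In relation to genes, most members lay over 1 kb from a start. Of the 6950, 836 had a CTCF summit within 1 kb of a protein-coding start, 12.0% (95% interval 11.3 to 12.8), 42.4% within 10 kb, and 6.88% over 100 kb away, with a median distance of 13043.5 bp. By annotation, 53.8% were intergenic, 38.7% intronic, 3.19% in coding exons and 4.32% in other exon sequence of protein-coding transcripts. The share within 1 kb of a start was 8.27% (7.07 to 9.66) at anchors without the Top2b flag, a difference of 3.79 ± 3.50 percentage points over chromosomes (17 of 19 higher, adjusted p = 0.0010, exact test). It was -0.42 percentage points among sites matched on CTCF score, 2.18 among those matched on Rad21 score and 2.31 without the recurrent motif sequences, none of them past the threshold. Because loops without a start were dropped from the prediction, the comparison with TAD anchors is a description. The difference within 1 kb was -0.40 ± 2.70 percentage points. Within 10 kb, a window chosen after seeing the data, a start lay near 42.4% of members (41.2 to 43.5) and 33.0% of TAD anchors (31.5 to 34.4). The median distance to a start was 20611 bp at TAD anchors.

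The surroundings of the members were compared through neighbouring peaks. A member had a median of 6 other CTCF peaks within 50 kb and 1 Rad21 peak that overlapped no CTCF peak, a kind of site often found at enhancers. The median count of such Rad21 peaks per chromosome was higher than at TAD anchors by 0.79 ± 0.42 (15 chromosomes higher, 4 equal, adjusted p = 1.4e-04, exact test), with means over all sites of 1.33 and 0.853. Between chromosome means the difference was 0.45, all sites taken, and also 0.45 among sites matched on CTCF score, with members higher on 19 of 19 chromosomes in both. Within 10 kb every chromosome median was 0, so that medians could show no difference there. The means within 10 kb differed by 0.076 (adjusted p = 1.1e-05, exact test). Nearness to genes is partly built into comparisons with TAD anchors, with median distances to a start of 13043.5 bp at members and 20611 bp at TAD anchors. With sites within 1 kb of a start left out, the difference in medians within 50 kb was also 0.79. The part of longer distances to starts was not tested. Against anchors without the Top2b flag, CTCF peaks differed by 0.026 ± 0.82 (adjusted p = 1, exact test) within 50 kb and by 1.0 within 200 kb, where members were higher on 12 of 19 chromosomes (adjusted p = 0.043, exact test). Within 10 kb the means of CTCF peaks differed by -0.095 (adjusted p = 0.049, exact test). Medians of CTCF-free Rad21 peaks per chromosome, mostly 0 or 1, differed by 0.18 ± 0.38 (adjusted p = 0.19, exact test), whereas the means over all sites, 1.33 at members and 1.37 without the flag, ran the other way. Between chromosome means this difference was -0.051 within 50 kb (adjusted p = 0.25, exact test) and -0.076 within 10 kb (adjusted p = 4.9e-05, exact test). Among sites matched on Rad21 score the members had fewer of both, by -0.40 CTCF peaks (adjusted p = 0.0093, exact test) and -0.21 CTCF-free Rad21 peaks (adjusted p = 9.1e-04, exact test).

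Consecutive members along a chromosome were 84880 bp apart in the median, with quartiles of 29296.5 and 243378.5 bp and a smallest distance of 532 bp. Motifs were on the plus strand at 3471 members and on the minus strand at 3479. Because the prediction used motif strand, the order of strands between neighbours is partly built in and was given no test. Of 802 neighbouring pairs under 10 kb apart, 71.3% (95% interval 68.1 to 74.3) were in tandem and 3.74% (2.63 to 5.29) convergent, meaning that both motifs pointed inwards. The convergent share was 21.5% between 10 and 30 kb, 42.1% (40.0 to 44.3) between 30 and 100 kb, and 38.9% between 100 and 200 kb. Beyond 500 kb it was 16.7%, while divergent pairs made up 47.1% (44.0 to 50.2).

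**Figure D5:**
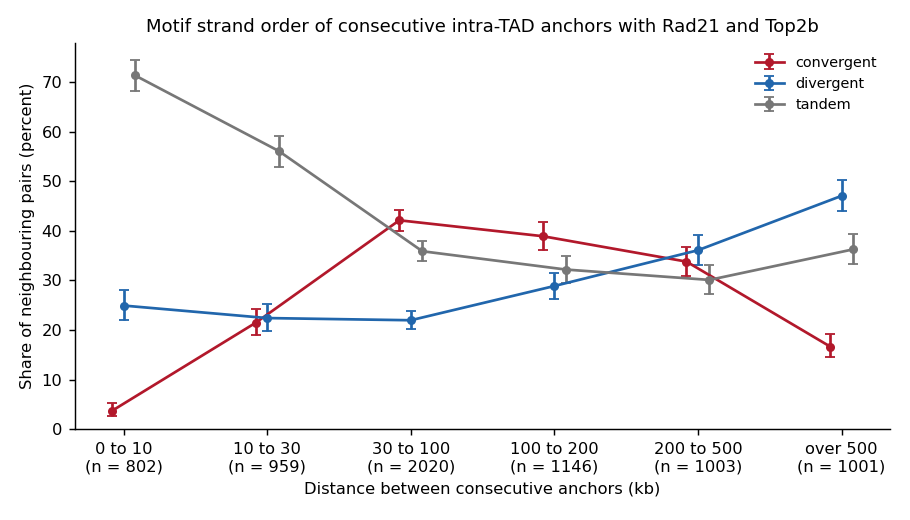
Share of neighbouring pairs of members in percent (vertical) that are convergent, divergent or in tandem, by the distance between their CTCF summits in kb (horizontal), with 95% Wilson intervals as bars. Tandem pairs make up 71.3% below 10 kb, and convergent pairs are the most frequent kind from 30 to 200 kb.

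Members near genes with known liver roles were counted from 4 lists. Across all annotated protein-coding genes, 868 of 22232, 3.90%, had a member within 1 kb of a start. None of the 44 listed plasma protein genes that matched the annotation had one. Masp1, the complement protease named above with a member 309 bp downstream of a start, was not among them. Of 57 genes for liver transcription factors and nuclear receptors, 5 had a member within 1 kb (8.77%). So did 2 of 50 genes of carbohydrate, nitrogen and lipid metabolism (4%) and 3 of 28 genes for CTCF, cohesin and topoisomerase machinery (10.7%). With counts this small no list was tested.

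The transcription factor genes were Ppard, Foxa3, Nr1h3, Tbx3 and Mlxipl. Ppard encodes a receptor for fatty acids, and the anchor 198 bp upstream of its start had a CTCF score of 11921 and a Rad21 score of 3995. Foxa3 encodes a pioneer factor of hepatocytes, with an anchor 145 bp upstream (CTCF 6388, Rad21 4804). The oxysterol receptor gene Nr1h3 had an anchor 151 bp downstream of a start, in exon sequence outside the coding part (6372 and 2499), and Tbx3, a developmental regulator, one 56 bp downstream of a start (5984 and 967). Mlxipl encodes the sugar-responsive factor ChREBP, and the anchor in its intron, 960 bp from a start, was weaker in CTCF (2027) but had 95.6 Rad21 fragments per 100 of CTCF, against 26.5 at Tbx3. The motif sequences at these starts are shown to compare their departures from each other.
Ppard, chr17:28369488-28369517, plus strand: cgtctGACTGCAGAGGGCGCTGCAgacgcg
Foxa3, chr7:19608988-19609017, minus strand: tgagaTCCCGCAGGGGGCGCCCCAatccga
Nr1h3, chr2:91034936-91034965, plus strand: cagggGCCAGCAGGGAGAAGCAGTaatgta
Tbx3, chr5:120120727-120120756, minus strand: aagtcGCCTCTAGGTGGCTGATCCagaaga
Mlxipl, chr5:135583754-135583783, plus strand: ccagaGCCAGCAGAGGGTGCTGCAgtccac

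In the other lists, Acaca, which encodes the carboxylase that starts fatty acid synthesis, had members on both sides of its starts. The one 386 bp upstream had a CTCF score of 3704 and a Rad21 score of 2601, and the one 84 bp downstream of a start scored 1432 and 242. Asl, an enzyme of the urea cycle, had a member 279 bp downstream of its start (3392 and 1131). The machinery itself was represented by Stag1, Esco1 and Pds5a. Stag1, the cohesin subunit whose flag is described above, had a member 1 bp from a start with scores of 21752 and 5142. Esco1, which acetylates cohesin, had one 25 bp upstream with a CTCF score of 22933 but a Rad21 score of 665, or 5.24 Rad21 fragments per 100 of CTCF. Pds5a, which regulates the release of cohesin, had one 882 bp downstream (5419 and 2579).
Stag1, chr9:100543986-100544015, plus strand: gcgcgGCCAGCAGAGGGCGGTCGGgacccg
Asl, chr5:130499715-130499744, plus strand: cataaGCCACTAGGTGGCGCTGGAtgggca
Pds5a, chr5:66088160-66088189, minus strand: ttctgACCGATAGAGGCCGGTAGAggactg

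Genes could also lie between members. There were 1533 convergent pairs of consecutive members at most 200 kb apart, with a median length of 67181 bp. All annotated starts of exactly 1 protein-coding gene lay inside 776 of them, those of 2 to 5 genes inside 489, and those of no gene inside 232. As loops without a start were dropped from the prediction, the presence of genes is partly built in. Such a pair is a neighbourhood of strands and peaks in these lists, and contact between its ends was not measured here. All starts of 2317 of the 22232 protein-coding genes, 10.4%, lay inside such a pair. Of the listed genes these were 10 of 44 for plasma proteins (22.7%), 11 of 57 for transcription factors and receptors (19.3%), 5 of 50 for metabolism (10%) and 5 of 28 for the machinery (17.9%). Several of these genes share a pair, and no list was tested. A gene outside chromosomes 1 to 19 could not lie inside a pair of members. The genes named next are those in the shortest pairs of each list. The shortest pair around a listed plasma protein gene spanned 44.3 kb and held Apoe, the apolipoprotein of remnant particles, with Apoc1, Apoc2 and Apoc4. Its left anchor had CTCF and Rad21 scores of 3413 and 2545, and its right anchor 1610 and 661. A pair of 44.7 kb held Gc, the vitamin D binding protein gene, alone, with CTCF scores of 5417 and 3100 and Rad21 scores of 847 and 1115. The acute phase genes Saa1, Saa2, Saa3 and Saa4 shared a pair of 56.2 kb, with Rad21 scores of 2058 and 1977, and Trf, which encodes transferrin, was alone in one of 94.9 kb.

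Among regulators and enzymes, Foxa3 was alone in a pair of 17.0 kb, the shortest of those named, with CTCF scores of 11838 and 6388 and Rad21 scores of 4153 and 4804. Its right end was the member near the Foxa3 start given above. Srebf2, the regulator of cholesterol synthesis, was alone in 26.1 kb between a weak anchor (CTCF 953, Rad21 546) and a stronger one (5196 and 1067). Nr1h3 and Acp2 shared a pair of 29.1 kb with CTCF scores of 6372 and 672, and Stat3, which mediates acute phase signalling, was alone in 63.9 kb with scores of 11133 and 3548. G6pc, the last enzyme of glucose production, lay with Aoc2 and Aoc3 in 71.6 kb between anchors of Rad21 scores 3299 and 5686. Lpin1, Insig1 and Scd1, all of lipid metabolism, were each alone, in pairs of 71.0, 95.4 and 101.2 kb. In the machinery list, Ctcf itself was alone in a pair of 63.4 kb, with CTCF scores of 5300 and 3292 and Rad21 scores of 2603 and 1290. Top2a shared a pair of 90.7 kb with Gjd3 and Igfbp4, and Wapal, which releases cohesin from DNA, was alone in one of 148.1 kb. Maz lay in one of 87.8 kb in a group of 6 genes.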

How the data were processed

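CTCF and Rad21 ChIP-seq peaks of mouse liver were analysed from 3 deposited lists. According to the methods of the study, reads of all libraries of a factor were pooled by the authors before mapping to mm9 with Bowtie2, unique positions were kept, peaks were called with MACS2, and blacklisted regions and peaks made of duplicates were dropped. The deposited peak score is 10 times the −log10 of the q-value, without decimals. Fold, as deposited, is a ratio of summit fragments to a local background, and the deposited −log10 p-value belongs to the same summit. For the best CTCF motif of a site the authors deposited a log-odds score. Pooling removes the spread between mice, and the depth of each library at a site is unknown.

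Summit fragments were recovered from the fold and the −log10 p. They were whole within 0.05 at 99.996% of 76683 CTCF and 99.997% of 67369 Rad21 peaks, and at every member. Every classed site matched a pooled CTCF peak in coordinates and score. Where a site overlapped several Rad21 peaks (65 members), the strongest was used, and 14 members shared a Rad21 peak with another. A 19-bp motif was learnt from 3038 TAD anchors on odd autosomes and its best match was taken on the deposited strand, which was also the better strand at 98.5% of members. Genes came from GENCODE vM1 on the NCBIM37 assembly, the same build as mm9.

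Comparisons used exact sign-flip tests over 19 autosomes, tested beforehand on simulated data, with Benjamini-Hochberg adjustment over 18 tests and a threshold of 0.05. The smallest unadjusted p these can give is 3.8e-06. In matched comparisons, chromosome differences of means, not medians, were averaged over 5 equal bins of score with at least 3 sites of each kind. Shares have Wilson intervals.

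The members and gene lists were chosen with earlier results of these data known. Named were the 5 members with the highest CTCF and Rad21 scores, the 3 with the lowest CTCF score, 3 on each edge of the overlap rule, the 5 most frequent motif sequences, members within 1 kb of a listed gene (up to 6 per list) and the shortest convergent pairs of at most 200 kb around listed genes (up to 4 per list). Alternatives covered the overlap rule, matching, windows, thresholds and gene starts. Software was samtools 1.23.1, pysam 0.24.0, pandas 2.3.3, SciPy 1.17.1, NumPy 2.4.6 and Matplotlib 3.10.9 under Python 3.11.15.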

Additional observations from a re-analysis of the deposited data

Results flagged for a closer look

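Among the 26 autosomal intra-TAD anchors with the Top2b flag that shared no base with a pooled Rad21 peak, and so were left out, the Stag2 flag was present at 21, or 80.8% (95% Wilson interval 62.1 to 91.5), and the Stag1 flag at 11, or 42.3% (25.5 to 61.1). They stood out because these sites enter no comparison above. Among the 261 autosomal intra-TAD anchors with neither a Rad21 peak nor the Top2b flag, Stag2 was flagged at 44.4% (38.5 to 50.5) and Stag1 at 26.8% (21.8 to 32.5). The difference was not tested. The anchors with the flag had a median CTCF score of 596, against 582 at those with neither mark, and their nearest Rad21 peak lay at least 97 bp away, with a median distance of 1493.5 bp, against a lowest distance of 23 bp and a median of 3533 bp at those with neither mark. A start lay within 1 kb of 23.1% (11.03 to 42.05) of the first and 4.21% (2.37 to 7.39) of the second. The flags come from public libraries of other livers and other depths, whose part in the result was not tested.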

How the results depend on the processing

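Of 155 tested differences recomputed under an alternative setting, 107 kept their direction and their side of the threshold, and 11 more stayed short of it with a value of 0 in the reported or the recomputed difference. The 107 include every recomputed difference in CTCF score, in Rad21 score, in GC content and, against anchors without the Top2b flag, in the Stag1 and Stag2 shares. Values that did not are differences of members from the other group, in the units given above, and the cause was not tested.

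Against anchors without the flag, matching on CTCF score gave -0.24 for motif score, -0.42 percentage points for starts within 1 kb, -0.26 for CpG, -0.0074 for CTCF peaks and -0.029 for CTCF-free Rad21 peaks. Matching on Rad21 score gave -0.33, 2.18, 0.12, -0.40 and -0.21 for the same measures and -2.54 bp for the summit offset. Matched values compare chromosome means. Without matching, means gave 0.093 for CTCF peaks and -0.051 for CTCF-free Rad21 peaks, the latter negative before any matching. Leaving out recurrent motif sequences gave 0.29 for motif score and 2.31 for starts, and sites with a CTCF score of at least 1000 gave 0.030 for motif score and -0.026 for CTCF peaks. CTCF peaks differed by -0.053 within 10 kb and, past the threshold, by 1.0 within 200 kb, and the offset by -0.42 bp from the motif centre. Even autosomes alone, not used to learn the motif, gave 0.78 for CpG and -0.33 bp for the offset. Against TAD anchors, even autosomes gave 0.75 for Stag1, no longer past the threshold, and 0.54 for starts, and Stag1 over 1 kb from a start was 0.29, also short of it. Starts differed by 0.95 with summits within 100 bp, 0.20 with reciprocal overlap of at least 50%, 0.77 at a CTCF score of at least 1000, 1.66 in a window of 2500 bp and 0.68 with all transcripts, and Stag2 by 0.0075 and 0.0055 under the stricter overlaps. The offset from the motif centre differed by 0.45 bp, and CTCF-free Rad21 peaks within 10 kb by 0, where all medians were 0. Between chromosome means, CTCF-free Rad21 peaks differed from anchors without the flag by -0.051 within 50 kb and -0.076 within 10 kb, and CTCF peaks by -0.095 within 10 kb. Starts within 10 kb differed from TAD anchors by 8.16, a description, since nearness to starts is partly built into the class of the members. The score of the learnt motif differed by -0.69 from anchors without the flag. Matching on Rad21 score, the learnt motif's score, chromosome means, the 10 kb window for starts, even autosomes and leaving out recurrent sequences were added after seeing the data.

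No paired analysis was possible because the lists pool all libraries of a factor and carry no value per replicate. Leaving out a library was not run, as the values are pooled.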

Other observations

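The 49 intra-TAD anchors of chromosome X with Rad21 and the Top2b flag were left out of the comparisons. Stag1 and Stag2 were flagged at 49 of 49, or 100% (95% Wilson interval 92.7 to 100). Their median CTCF score was 2006 and their median Rad21 score 648, against 3358.5 and 1198 at the autosomal members. The libraries were from males, which carry a single X chromosome, and the part of copy number in these levels was not tested. Of the chromosome X anchors, 7 lay within 1 kb of a protein-coding start, or 14.3% (7.10 to 26.7).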
